A study of Mus musculus with 23 samples.

Results

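Neutrophils sorted from the lungs of mice were set against whole lung, the tissue they were sorted from, to see which transcripts of whole lung these cells can supply and which lung transcripts the sort leaves behind. The comparison used 6 of the 23 bulk RNA-Seq libraries of the series, 3 of sorted lung neutrophils and 3 of whole control lung, joined on the 20647 gene symbols that stood once in each table. The series asked how neutrophils in the lung vasculature differ from those of peripheral blood (PB) and bone marrow (BM), what the stretch-gated channel PIEZO1 contributes, and what the lung loses without neutrophils. Sorted lung neutrophils came from WT mice, with no treatment named, whose lungs had been perfused thoroughly, and were taken by negative selection followed by FACS as CD45+CD11b+Ly6G+ cells. Control lungs came from WT mice given an isotype control antibody i.p., and a further 3 whole-lung libraries came from WT mice given anti-Ly6G i.p. to deplete neutrophils. For reference, 3 libraries each of WT neutrophils from PB and from BM were used, as well as the WT lung and PB neutrophils of a separate experiment on *Piezo1* (2 libraries each). The antibody was given 1 time or on 2 days before analysis, and which schedule applies to these libraries was not given in the sources used here. The study's methods name young adult mice in general, with juvenile mice in some experiments, and no age for these libraries. Sorted cells went through a cell suspension, a selection column and a sorter whereas whole lung did not, so that handling and cell type cannot be told apart in what follows. In the study's general tissue protocol lung is also digested with collagenase and blood is not. Tissue and digestion therefore cannot be told apart between lung and PB neutrophils either.

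Neutrophils are short-lived granulocytes that mature in the BM, where most of their granule proteins are transcribed, and then circulate. In the lung they are retained in narrow capillaries in close contact with endothelium, and are known there for rapid responses to bacteria, mainly through prestored granules, reactive oxygen and secretion of IL-1β and of CXC chemokines that bring in further neutrophils. Whole lung RNA is by contrast dominated by secretory epithelium (club cells and surfactant-producing alveolar type 2 cells), endothelium and stroma.

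Recovered reads in the sorted lung libraries were 17142369, 17160413 and 16501131. FPKM counts mapped fragments relative to transcript length and library size, so that it is a level per length, and it was deposited for each experiment in a table of its own. Summed FPKM was 410782 to 420006 in sorted neutrophils and 345075 to 391908 in control lung, and genes at 1 FPKM or more numbered 6887 to 6899 and 13931 to 14045. Since the tables were normalized separately, no test was made between them: only ranks and differences of at least 10-fold between every pair of libraries were read as differences, and values closer than that are printed without a direction. The whole-lung table lists 37 mitochondrial genes and the neutrophil table none, and the club cell gene *Scgb1a1* alone took 16.7% to 24.5% of the joined FPKM of control lung. The study gives the sorted libraries of the tissue comparison as separate mice; for the whole-lung libraries no such statement was found, so that p-values of depletion measure only the spread between these libraries, which may be technical.

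Of the joined genes, 475 (2.3%) had a mean of at least 10 FPKM in sorted lung neutrophils and stood at least 10-fold higher in each of these libraries than in any control lung library. The reverse class, at least 10 FPKM in control lung and at least 10-fold above every sorted library, held 1435 genes (6.95%). Among neutrophil-high genes 72 passed 100-fold, and among lung-high genes 815. The neutrophil-high genes made up 56.9% of all joined FPKM in sorted neutrophils but only 1.52% in whole lung, while the lung-high genes made up 49.7% of whole lung and 0.197% of sorted neutrophils. The remaining 3535 of the 5445 genes at 10 FPKM or more in either tissue were in neither class. At the edges, *Lmbr1l* lay just inside the neutrophil-high class with 10.002-fold between the nearest libraries and *Taldo1* just outside with 9.98-fold, and *Hdac2* (10.02-fold) and *Prkaca* (9.92-fold) stood at the edge of the lung-high class. Ranked over all joined genes, Spearman's rho between the mean levels was 0.743, as a description across genes that are not independent, against at least 0.961 between sorted lung libraries and at least 0.985 between control lung libraries.

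**Figure D1:**
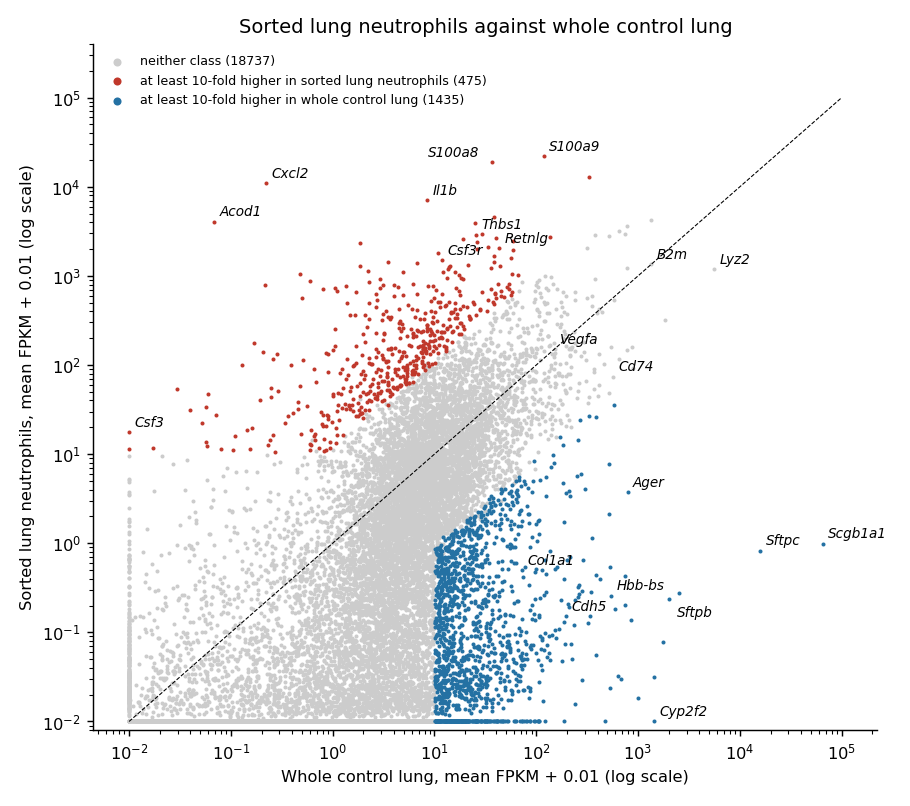
Mean FPKM plus 0.01 of every joined gene in whole control lung (x axis) and sorted lung neutrophils (y axis), both on log scales, n = 3 libraries each; the dashed line marks equal values. The 475 genes in red and 1435 in blue stood at least 10-fold apart in every pair of libraries, with *Cxcl2* and *Acod1* at the upper left and *Scgb1a1* and *Cyp2f2* at the lower right.

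*S100a9* and *S100a8*, which encode the subunits of calprotectin, had the highest levels of the neutrophil-high class. *S100a9* measured 22426, 20921 and 22339.9 FPKM in the 3 sorted libraries and 138, 107 and 108 in the 3 control lungs, and *S100a8* measured 20550.5, 18028 and 18122 FPKM against 41.2, 35 and 35.1. Groups were far apart in every library, and whole lung held 0.538% and 0.196% of the sorted level. The ferritin heavy chain gene *Fth1* (12880.1 ± 285 FPKM, SD, n = 3, against 327 ± 27.9) followed, and the neutrophil chemoattractant gene *Cxcl2* ranked 4th with 11222, 10565 and 10946 FPKM in sorted cells and 0.186, 0.198 and 0.256 in whole lung. *Il1b*, encoding the inflammatory cytokine IL-1β, measured 7192, 7069.5 and 7031 FPKM against 8.54, 9.56 and 7.18. After these stood *Dusp1*, a phosphatase that restrains MAP kinases (4524 against 38.1 FPKM), *Acod1*, which makes itaconate (4041 against 0.059), the LPS co-receptor gene *Cd14* (3899 against 25), the transcription factor gene *Cebpb* (2968 against 29.6) and *Thbs1*, encoding thrombospondin 1 (2906 against 25.7). In every one of these 10 genes the lowest sorted library was more than 10-fold above the highest control lung, as the class requires.

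Whole lung did not hold these genes in one proportion. Whole lung would show the same percent of the sorted level for every neutrophil gene only under certain conditions. All whole-lung RNA of such genes would have to come from neutrophils like the sorted ones, and both tables would have to measure each gene alike. The latter was not tested. Between sorts, *Pim1* measured 1794 FPKM in these sorted libraries and 131 in the WT lung libraries of the *Piezo1* experiment. Over a list of 12 neutrophil genes used as a scale, that percent had a median of 0.639% and ran from 0.0446% for the decoy receptor gene *Il1r2* to 6.1% for the formyl peptide receptor gene *Fpr1*, a 137-fold range. Between these lay *Clec4d* (0.144%), *Trem1* (0.265%) and *Mxd1* (0.476%) below the median and *Hdc* (0.74%), *Csf3r* (0.796%), *Mmp9* (1.11%), *Cxcr2* (1.75%) and *Retnlg* (2.12%) above it. The median was 0.618%, 0.637% and 0.624% in the single control lungs. The range was 78.7-fold against sorted PB neutrophils, 91.4-fold against BM neutrophils and 215-fold against the 2 WT lung libraries of the *Piezo1* experiment, a separate sort. In bulk tissue fewer cells of a type and less RNA per cell cannot be told apart, so that the percent is not a count of cells.

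**Figure D2:**
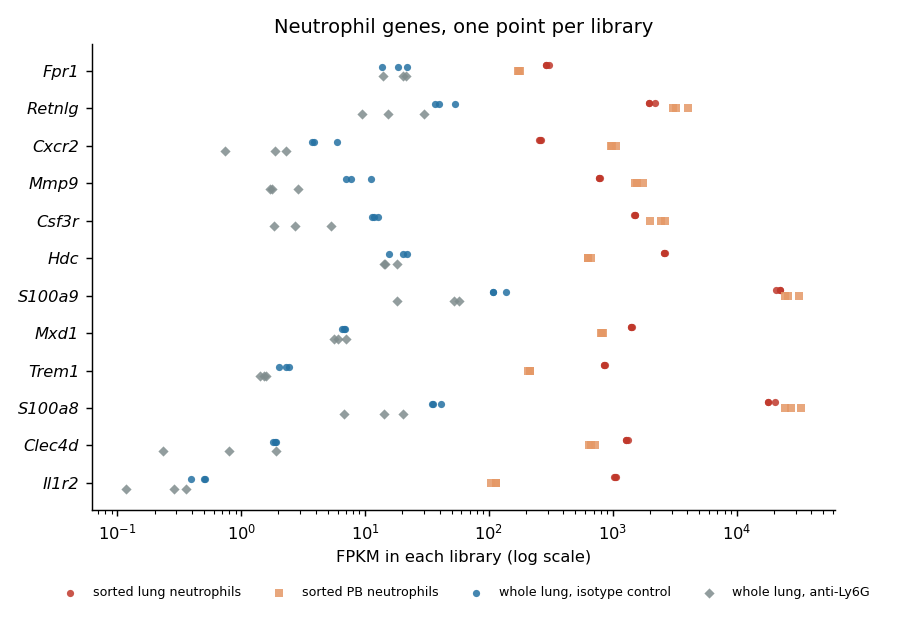
FPKM on a log scale of the 12 neutrophil genes of the scale in each library, 3 libraries per group; rows run from the lowest percent of the sorted level in whole lung (*Il1r2*) to the highest (*Fpr1*). All points of sorted lung neutrophils (red) stood at least 10-fold to the right of those of control lung (blue), whereas control and anti-Ly6G lungs (grey) lay apart for genes such as *Mmp9* and overlapped for *Fpr1* and *Mxd1*.

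Of the 34 genes of the full neutrophil list, 31 were in the neutrophil-high class and 0 in the lung-high class, against 2.3% and 6.95% of all joined genes, the shares against which the counts of the other lists are also to be read. Because the lists were chosen with earlier results of these data known, such counts describe the lists and are not a test. *Ly6g*, whose product was used for the sort, measured 55, 55.7 and 53 FPKM in sorted cells and 0.0683, 0.577 and 0.071 in control lung. Granule genes differed by granule type. All 6 primary granule genes, which are transcribed in promyelocytes of the BM, were low in sorted cells, where the highest was *Prtn3* (proteinase 3) with a mean of 1.23 FPKM, and *Mpo* (myeloperoxidase) had a mean of 0.116. They summed to 2 to 2.75 FPKM in sorted lung cells, 7.88 to 8.87 in BM neutrophils and 0.26 to 0.517 in whole lung. None could therefore reach the 10 FPKM that either class needs. Of 12 genes of specific and gelatinase granules, 7 were neutrophil-high, among them *Lcn2* (lipocalin 2, 1422 ± 48.5 against 38.9 ± 9.31 FPKM, SD, n = 3) and *Ngp* (neutrophilic granule protein, 364 ± 7.95 against 1.49 ± 0.443). These 12 genes too were lower in lung than in BM neutrophils, with sums of 3707 to 3832 and 56214 to 57731 FPKM. *Chil3*, a chitinase-like gene that alveolar macrophages also express, was lung-high with 507, 588 and 637 FPKM in whole lung against 37.2, 34 and 35.5 in sorted cells. *Ltf* (lactoferrin) measured 122, 120.1 and 122 FPKM in sorted cells and 18.6, 33.8 and 37.5 in whole lung and was in neither class.

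At the scale of 0.639%, sorted neutrophils would supply at least 50% of the whole-lung level of 63 of the 12148 genes at 1 FPKM or more in control lung (0.519%), and at least 100% of 29. For 10036 genes (82.6%) the supplied level was below 1% of what whole lung held. Genes for which the scale gives more than was measured included *Il1b*, for which it gives 45.4 FPKM where whole lung held 8.43, and *Nlrp3*, the inflammasome sensor gene (4.32 against 1.08). Genes below 1 FPKM in control lung were left out of these counts, and some of them lay further off. For *Cxcl2* the scale gives 69.7 FPKM where whole lung held 0.213, and for *Acod1* 25.8 where it held 0.059. For *Cd14*, *Dusp1* and *Thbs1* the scale gives 99.7%, 76% and 72.4% of the level in control lung, whereas after depletion lungs still held 97.6%, 84.1% and 82.7% of it, against 36% for *S100a9* and 21.3% for *Il1b*. The share at this scale is arithmetic and not a measured contribution. For *Fth1* and the neutrophil homing receptor gene *Cxcr4* the scale gives 25.2% and 8.3%, although each was at least 10-fold higher in sorted cells. The count rests on the scale: it was 1 at the percent of *Il1r2* and 525 at that of *Fpr1*. Single genes also rest on the sorted libraries used. Against the WT lung libraries of the *Piezo1* experiment the scale was 0.494%. Whole lung there held more than this for *Nlrp3* (1.59%) and *Thbs1* (3.3%), so that the scale gives less than was measured. It held less for *Il1b* (0.0863%), *Cd14* (0.419%) and *Dusp1* (0.389%).

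Depletion of neutrophils gave a second view of the same whole-lung transcripts, and its values are set beside the ratios without a further comparison, since both use the control lungs. By limma-trend on log2(FPKM + 1), 1 of 13971 genes tested was lower after depletion (0.00716%) at an adjusted p below 0.05 (Benjamini-Hochberg) and a log2 fold change below -0.5, and 0 were higher. That gene was *Aqp5*, an alveolar type 1 and gland water channel, which measured 71.5, 84.7 and 73.4 FPKM in control lung and 23.2, 26.9 and 28.6 after depletion (log2 fold change -1.51 ± 0.10 SE, limma adjusted p = 0.0211), against 0, 0.0376 and 0 in sorted neutrophils. The *Aqp5* call was lost without control replicate 3, depleted replicate 2 or depleted replicate 3 (limma adjusted p = 0.0575, 0.0596 and 0.0905). It was also lost with no filter, and over all alternatives its limma adjusted p reached 0.129. The count of calls was 4, 5 and 0 without control replicates 1, 2 and 3 and 12, 1 and 0 without depleted replicates 1, 2 and 3. At an unadjusted p below 0.05, 494 genes were higher, 1075 were lower (7.69%) and 12 of the 23 tested genes of the neutrophil list were, and every control library stood above every depleted library for 1650 genes (11.8%) and for 12 genes of the list. None of the list passed the adjusted test of limma. The study, whose methods name DESeq2 on read counts, reports that depletion affected many genes at the same cut-offs. The few calls here from FPKM therefore do not mean that lung RNA was unchanged.

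Single neutrophil genes differed in how far apart control and depleted lungs lay. *S100a9* measured 57, 52 and 18.2 FPKM after depletion and *S100a8* 20.2, 14.3 and 6.78, in both cases below every control lung (log2 fold changes -1.60 ± 0.40 and -1.48 ± 0.33 SE, limma adjusted p = 0.232 and 0.191). *Il1b* measured 2.1, 2.37 and 0.928 FPKM after depletion (-1.79 ± 0.22 SE, limma adjusted p = 0.076), again with no overlap. *Mmp9* and *Csf3r*, the receptor gene for granulocyte colony-stimulating factor, had log2 fold changes of -1.63 and -1.68 (limma adjusted p = 0.076 and 0.128, the latter 0.0211 to 0.371 over the alternatives and lowest without depleted replicate 1). At the other end, *Fpr1* (0.04, control 13.7, 18.3 and 21.7 and depleted 20.1, 21.5 and 14 FPKM), *Mxd1* (-0.10) and *Slpi* (-0.09) overlapped between control and depleted lungs. Over the 395 tested genes of the neutrophil-high class the median log2 fold change was -0.16, over the lung-high class -0.03 and over all joined genes tested -0.04.

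Lung and PB neutrophils were compared within the tissue table, where 587 of 7561 genes (7.76%) were higher in lung than in PB neutrophils and 1474 (19.5%) lower by limma-trend with an adjusted p below 0.05 (Benjamini-Hochberg) and a log2 fold change of more than 1 either way. The median gene lay at a log2 fold change of -0.54, and after rescaling by the median ratio the split was 912 higher and 497 lower, so that directions close to 0 depend on the scaling. The part of enzyme digestion, which the general protocol uses for lung and not for blood, was not tested. Feedback genes of the NF-kB pathway were higher in lung for 11 of 12, and 10 of 12 were in the neutrophil-high class. *Nfkbiz*, a nuclear co-activator induced by LPS and IL-1, measured 1405, 1424 and 1423 FPKM in lung neutrophils, 279.8, 293 and 219.8 in PB neutrophils and 4.14, 3.6 and 2.66 in whole lung (log2 lung over PB 2.43 ± 0.10 SE, limma adjusted p = 2.4e-07). *Tnfaip3*, the A20 deubiquitinase gene that shuts the pathway off, measured 726, 743 and 751 FPKM, 77.8, 80.5 and 61.4 and 3.98, 1.17 and 3.53 (3.33 ± 0.10 SE). Levels in whole lung were thus below those of PB neutrophils and far below those of lung neutrophils for both. Of 18 AP-1 and immediate early genes, 10 were neutrophil-high, 6 rose in lung over PB and 2 fell. *Fos* measured 1209 FPKM in lung and 1956 in PB neutrophils against 13.6 in whole lung, and *Nr4a3* 89.4, 0.21 and 1.23.

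Within the neutrophil-high class, *Csf3*, *BC100530*, *Acod1*, *Cxcl2* and *Cxcl3* had the lowest percent of the sorted level in whole lung. *Csf3*, encoding granulocyte colony-stimulating factor, measured 17.9, 17.7 and 17.3 FPKM in sorted lung neutrophils and was listed at 0 in all control lungs, all depleted lungs and all PB neutrophils, and *BC100530*, a stefin A gene with near-identical copies among which reads may be split, was also listed at 0 in control lung against 11.3 FPKM. *Acod1* held 0.00146%, *Cxcl2* 0.00195% and *Cxcl3* 0.0262% of the sorted level. At the upper end of the class stood *Arhgap9* (9.18%), *Vasp* (9.28%), *Gripap1* (9.4%), *Sema4a* (9.46%) and *Lmbr1l* (9.66%). The class thus ran from genes not listed above 0 in whole lung to genes at the 10-fold limit.

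Of 18 chemokine genes, 6 were neutrophil-high and 5 lung-high, against 2.3% and 6.95% of all joined genes. *Cxcl1*, *Cxcl2*, *Cxcl3* and *Cxcl15* lie together on chromosome 5 (GRCm38) and all attract neutrophils. *Cxcl2* at chr5:90903899-90905938 ranked 4th among the genes of sorted cells, whereas in whole lung it ranked 13807 to 14167. *Cxcl3* measured 806, 777 and 783 FPKM in sorted cells and 0.147, 0.229 and 0.244 in whole lung. *Cxcl1* measured 122, 122 and 110.5 against 0.0897, 0.289 and 0.378. In PB neutrophils *Cxcl2* measured 836, 918 and 562 FPKM and *Cxcl3* 2.94, 1.39 and 0.951, below every sorted lung library (log2 lung over PB 3.85 ± 0.16 and 8.23 ± 0.22 SE, limma adjusted p = 2.53e-07 and 2.43e-08). *Cxcl15*, also called lungkine and made by lung epithelium, went the other way with 809, 830.0 and 913 FPKM in whole lung and 0.192, 0.11 and 0.0855 in sorted cells. The promoters of these 4 neighbours are printed because they share a locus and stand at opposite ends of the comparison; each runs from 250 bases before to 50 after the gene start on the + strand (RefSeq, GRCm38.p6), and the capitals mark GGGAATTTCC, the kappa B type match that the first 3 share, which was chosen after the promoters had been read.
*Cxcl1*, chr5:90890995-90891294: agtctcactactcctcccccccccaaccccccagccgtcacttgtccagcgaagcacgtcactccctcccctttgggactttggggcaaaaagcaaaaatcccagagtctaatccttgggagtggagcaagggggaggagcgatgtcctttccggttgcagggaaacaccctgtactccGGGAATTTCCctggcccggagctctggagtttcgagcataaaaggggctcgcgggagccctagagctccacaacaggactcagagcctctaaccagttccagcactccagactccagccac
*Cxcl2*, chr5:90903649-90903948: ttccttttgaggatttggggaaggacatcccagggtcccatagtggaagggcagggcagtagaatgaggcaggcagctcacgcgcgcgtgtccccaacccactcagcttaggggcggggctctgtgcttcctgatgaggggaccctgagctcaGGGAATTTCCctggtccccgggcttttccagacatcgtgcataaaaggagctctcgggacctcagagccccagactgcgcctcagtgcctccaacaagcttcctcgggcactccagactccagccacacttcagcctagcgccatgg
*Cxcl3*, chr5:90785851-90786150: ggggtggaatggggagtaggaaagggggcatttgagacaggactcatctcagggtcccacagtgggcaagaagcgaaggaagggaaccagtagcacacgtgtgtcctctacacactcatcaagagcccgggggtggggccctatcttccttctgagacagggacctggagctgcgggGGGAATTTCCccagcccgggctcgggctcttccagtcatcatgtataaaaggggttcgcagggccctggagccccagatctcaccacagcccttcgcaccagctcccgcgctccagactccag
*Cxcl15*, chr5:90794284-90794583: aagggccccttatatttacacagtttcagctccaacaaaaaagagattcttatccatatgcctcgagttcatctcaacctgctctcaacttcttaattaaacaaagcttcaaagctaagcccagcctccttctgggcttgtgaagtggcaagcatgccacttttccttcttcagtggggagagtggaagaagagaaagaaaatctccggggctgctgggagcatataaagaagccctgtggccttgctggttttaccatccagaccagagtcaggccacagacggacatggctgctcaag
The motif started 71, 97 and 73 bases before the start of *Cxcl1*, *Cxcl2* and *Cxcl3* and was not found in the window of *Cxcl15*. Searched on both strands, it stood in 29 of 32851 promoters of this length (0.0883%). This is a match of letters only.

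Among the other chemokines, *Ccl3* and *Ccl4*, which attract monocytes and T cells, were neutrophil-high with means of 773 and 85.9 FPKM against 1.33 and 1.98. *Ccl6* measured 1012, 945 and 952 FPKM against 128, 135 and 155 and was in neither class. *Cxcl12*, the stromal ligand of CXCR4, measured 38.8, 31.9 and 27.7 FPKM in whole lung against 0.00815, 0.0244 and 0.0338 in sorted cells, and *Ccl21a*, the lymphatic ligand of CCR7 (with near-identical copies), 76.3, 79.6 and 79.6 against 0, 0 and 0. The receptor of CXCL12 lay on the neutrophil side, since *Cxcr4* had 588 FPKM in sorted cells and 45.3 in whole lung. Of 14 chemoattractant receptor genes 7 were neutrophil-high, including *C5ar1* for the complement fragment C5a (628 against 6.76) and *Ptafr* for platelet-activating factor (442 against 2.67), while the scavenging receptor gene *Ackr3* was lung-high (11.6 against 0.0167).

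Cytokine genes lay mainly on the neutrophil side, with 9 of 16 neutrophil-high and 1 lung-high. *Osm* (oncostatin M) measured 717, 701 and 693 FPKM against 1.03, 1.02 and 0.353, *Il1rn*, the IL-1 receptor antagonist gene, 633, 607 and 615 against 2.86, 3.11 and 1.97, and *Tnf* 135, 134 and 132 against 0.961, 0.765 and 0.943. The lung-high cytokine was the epithelial alarmin gene *Il33* (39.4, 35.4 and 46.4 FPKM in whole lung, mean 0.0134 in sorted cells). Pattern recognition followed the same order with 8 of 14 neutrophil-high, led by *Cd14* and *Clec4e* (Mincle, 873 against 0.587 FPKM), and the macrophage scavenger receptor gene *Marco* lung-high. Of 10 NADPH oxidase genes 4 were neutrophil-high, among them the cytosolic subunit gene *Ncf1* (722 against 16.2 FPKM) and the GTPase gene *Rac2* (424 against 27.7), but *Cybb*, the catalytic membrane subunit, measured 16.9, 15.4 and 16.1 FPKM in sorted cells and 29.6, 22.5 and 26.4 in whole lung.

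Of 21 angiogenic factor genes 1 was neutrophil-high, *Thbs1*, and 8 were lung-high. *Thbs1*, whose product restrains angiogenesis, measured 2871, 2923 and 2924 FPKM in lung neutrophils and 21.6, 24.4 and 18.3 in PB neutrophils (log2 fold change 7.03 ± 0.09 SE, limma adjusted p = 1.04e-09) against 21.3, 27.1 and 28.6 in whole lung. *Vegfa*, the main growth factor of endothelium, measured 149, 153 and 150.0 FPKM in sorted lung neutrophils and 149.9, 153 and 152 in control lung and was in neither class, and in PB neutrophils it measured 13.1, 13.5 and 9.03 (3.58 ± 0.13 SE, limma adjusted p = 1.13e-07). Neutrophils at the scale would supply 0.636% of the *Vegfa* of whole lung, and *Vegfa* measured 129, 129 and 136 FPKM in depleted lung (log2 fold change -0.21 ± 0.06 SE, limma adjusted p = 0.295). *Hilpda*, a lipid droplet gene of the hypoxia response, measured 176, 158 and 166 FPKM in sorted cells against 41.8, 43 and 40.8, and *Icam1* 210.4, 219 and 212 against 129, 130.1 and 128, both in neither class. *Angpt1*, the TIE2 ligand of pericytes, had a mean of 11.6 FPKM in whole lung and 0.00882 in sorted cells, and *Pdgfb* 32.4 and 0.0196. *Piezo1* itself measured 15.3, 14.8 and 13.4 FPKM in whole lung and 0.213, 0.382 and 0.28 in sorted lung neutrophils.

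The lung-high class held *Scgb1a1* and *Sftpc*, which had the highest FPKM of its genes in whole lung. *Scgb1a1* (chr19:9083642-9087956), which encodes the club cell secretory protein, measured 46295, 70342 and 78801 FPKM in whole lung and 0.499, 0.996 and 1.42 in sorted lung neutrophils, where it rested on 4, 8 and 11 reads, and it was listed at 0, 0 and 0 in PB neutrophils. *Sftpc*, the surfactant protein C gene of alveolar type 2 cells, measured 14210.1, 16807 and 16429 FPKM against 0.871, 0.58 and 0.98. *Cyp2f2*, a club cell cytochrome, measured 1094, 1428 and 1737 FPKM and was listed at 0 in all sorted lung libraries. A count of 0 allows up to 3 reads in a library, and intervals of this kind cover counting error only. Of the other genes at the top of the class, *Cbr2* measured 1845, 2618 and 3072 FPKM against 0.398, 0.227 and 0.177, *Cxcl15* is given above, and *Sftpb* had a mean of 2025 FPKM against 0.229. *Scgb3a2*, *Sftpa1* and *Scd1* had means of 1767, 1436 and 992 FPKM in whole lung and 3 reads or fewer over all sorted lung libraries together. *Ager*, the alveolar type 1 receptor gene, was the least excluded of these 10, with 717, 864 and 794 FPKM against 3.86, 3.8 and 3.53, and PB neutrophils, which were not taken from lung, held more of it at 23.9, 22.5 and 13.8 (log2 lung over PB -2.12 ± 0.18 SE, limma adjusted p = 1.25e-05). In the *Piezo1* experiment *Ager* measured only 0.0933 and 0.154 FPKM in WT lung neutrophils and 1.16 and 0.74 in WT PB neutrophils. Its level in sorted cells thus depends on the experiment.

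Summed over marker lists, every lung tissue type was far lower in sorted cells, and over 75 genes of 6 such lists the sorted level was a median of 0.0832% of the whole-lung level. The 7 club cell genes summed to 1.09 to 1.94 FPKM in sorted lung neutrophils, 0 to 0.531 in PB neutrophils and 51578 to 87530.3 in whole lung. The 13 alveolar type 2 genes summed to 87.7 to 92.2 and 20564 to 23151, of which *Napsa*, an aspartic protease gene, held most in sorted cells (80.5, 80.4 and 82.8 FPKM against 163, 163 and 178) and was the 1 gene of the list outside the lung-high class. The 20 endothelial genes summed to 5.54 to 5.82 FPKM in lung neutrophils and 5.75 to 6.18 in PB neutrophils against 1783 to 2301, with 18 lung-high, and the VE-cadherin gene *Cdh5* measured 0.159, 0.101 and 0.165 against 239, 178 and 167. Sums in lung and PB neutrophils lay close together for endothelium. Erythroid genes summed to 1.2 to 1.25 FPKM in sorted cells and 1165 to 1678 in whole lung, where the beta globin gene *Hbb-bs* (near-identical to *Hbb-bt*) measured 444, 732 and 463 FPKM against 0.365, 0 and 0.379. Of 16 fibroblast and smooth muscle genes 14 were lung-high and of 20 collagen and basement membrane genes 18, and *Col6a3*, without a read in any sorted lung library, stood at least 613-fold lower there when set against the limit of 3 reads. All 11 alveolar type 1 genes and 7 of 8 ciliated cell genes were lung-high, as were 6 of 8 cardiac muscle genes, which a lung sample can carry with the pulmonary veins. *Acta2*, smooth muscle actin, was in neither class (16.3, 17.9 and 16.3 FPKM in sorted cells against 87.1, 109 and 130.3).

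**Figure D3:**
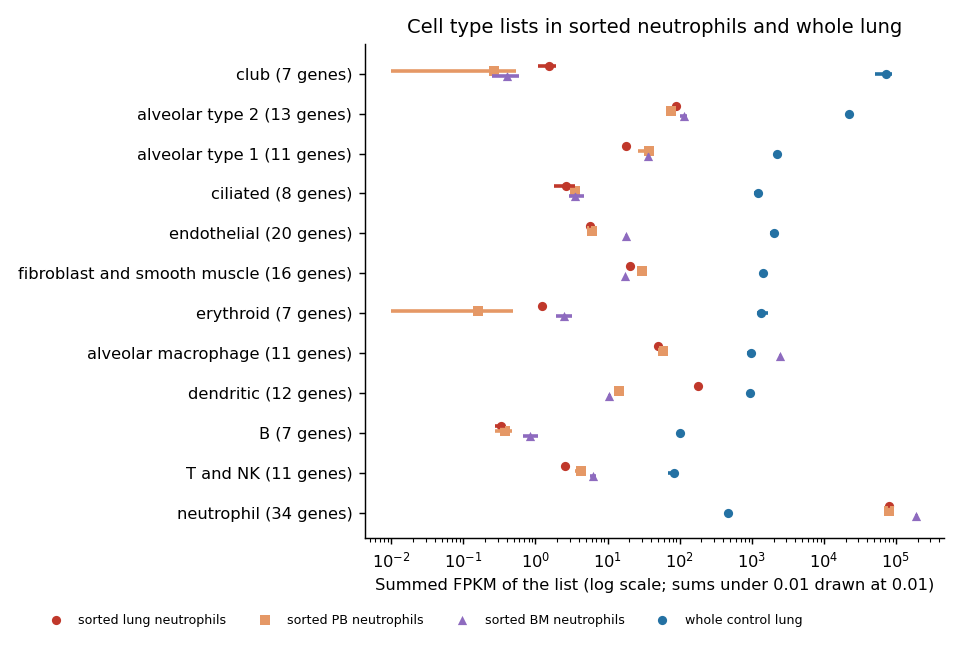
Summed FPKM on a log scale of 12 cell type lists in sorted lung, PB and BM neutrophils and whole control lung; points are means of 3 libraries and bars run from the lowest to the highest library, with sums under 0.01 drawn at 0.01. Whole lung lies to the right for every lung tissue list, by most for club cells, and sorted cells lie to the right for the neutrophil list. Of the sorted groups lung neutrophils stand out for the dendritic list. BM neutrophils stand out for the alveolar macrophage list.

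Immune cells other than neutrophils differed in their summed levels in sorted cells. A marker below a mean of 10 FPKM in whole lung could not be lung-high, however low it was in sorted cells. Counts of lung-high genes in lists of low markers therefore do not measure exclusion. The 7 B cell genes summed to 0.276 to 0.375 FPKM in sorted cells against 97.2 to 102, and *Cd79a* without a read stood at least 263-fold lower. Alveolar macrophage genes summed to 48.4 to 51.9 FPKM in sorted lung cells and 862 to 1046 in whole lung, with 8 of 11 lung-high. In BM neutrophils they summed to 2403 to 2531. *Chil3*, also a granule gene, made up most of the sum in sorted lung cells and whole lung, so that the sum does not measure macrophages alone. The exception among the surface markers of the list was *Siglecf* (13, 13.5 and 11.6 against 9.85, 12.6 and 10.8 FPKM), which eosinophils are also known to express. A list of 10 mast cell, basophil and eosinophil genes summed to 0.859 to 1.46 FPKM in sorted lung cells. The source of *Siglecf* in sorted cells was not tested. None of the 12 dendritic cell genes was lung-high, which for members below that level was fixed in advance. Their sum stood apart, with 174 to 187 FPKM in lung neutrophils, 12.6 to 17.2 in PB neutrophils and 877 to 1029 in whole lung. That sum was carried by MHC class II genes. *Cd74*, the invariant chain gene, measured 70.1, 74.6 and 76.4 FPKM in sorted lung cells, 10.7, 10.9 and 16 in PB neutrophils and 536, 563 and 614 in whole lung. *H2-Aa*, an MHC class II chain gene, measured 43.3, 37.6 and 43.5 FPKM in sorted lung cells, 0, 0.0508 and 0 in PB neutrophils and 106, 97.9 and 123 in whole lung (log2 lung over PB 5.38 ± 0.08 SE, limma adjusted p = 1.34e-09). *H2-Ab1* and *H2-Eb1* were also higher in lung than in PB neutrophils. All 4 MHC class II genes of the list, the only ones tested, rose in lung over PB neutrophils, against 7.76% of all genes tested. Of the defining dendritic cell genes *Flt3* measured 0.0392, 0.0783 and 0.102 FPKM in the sorted lung libraries and *Xcr1* and *Siglech* 0 in all, and the part of other cells in these levels was not tested. Of 12 monocyte and interstitial macrophage genes the complement genes *C1qa*, *C1qb* and *C1qc* and the angiotensin converting enzyme gene *Ace*, which endothelium also expresses, were lung-high, and *Ly6c2* and *Nr4a1* neutrophil-high. Of 11 T and NK cell genes 2 were lung-high and 5 were listed at 0 in all sorted lung libraries, of 8 platelet genes 0 were in either class, and of 10 mast cell, basophil and eosinophil genes 1 was lung-high. In whole lung the platelet genes summed to only 22.4 to 29.3 FPKM. The mast cell, basophil and eosinophil genes summed to 14.7 to 18 FPKM, so that few genes of these lists could enter the class. Of 15 adhesion genes 4 were neutrophil-high, among them *Selplg* and *Itgal*, which leukocytes use to roll and adhere, and *Itgb1*, *Itga8*, *Icam2* and *Pecam1* lung-high. *Piezo1* was the 1 lung-high gene of 10 mechanosensitive channel genes, a share near the 6.95% of all joined genes.

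Within gene families, close relatives stood on opposite sides. *Retnlg*, a resistin-like gene of neutrophils, measured 2181, 1979 and 1979.9 FPKM in sorted cells against 53.7, 36.7 and 39.8, and *Retnla*, a relative found in epithelium and macrophages, 0, 0 and 0.709 against 194, 347 and 232. Of 13 matrix metalloprotease genes 3 were neutrophil-high, the collagenase gene *Mmp8* (181, 179.5 and 178 against 2.7, 2.03 and 1.4 FPKM), the gelatinase gene *Mmp9* (769, 781 and 784 against 11.2, 7.71 and 7.06) and the membrane-bound *Mmp25* (34.4, 33.6 and 35.1 against 0.616, 0.683 and 0.342), and 5 were lung-high, among them *Mmp2* (36.8 in whole lung) and *Mmp15* (47.3). For each of these every sorted library lay apart from every control lung. Of 12 S100 genes *S100a8*, *S100a9* and *S100a6* were neutrophil-high, while *S100g*, a calcium carrier of epithelium, measured 73.7, 95.9 and 93.6 FPKM in whole lung and 0 in all sorted lung libraries. Protease inhibitors split in the same way: *Slpi* measured 2126, 2055 and 2085 FPKM in sorted cells against 24.4, 40.7 and 35.1, and *Wfdc2*, of airway epithelium, 484, 703 and 714 in whole lung against 0, 0.0672 and 0. *Ly6c2* was neutrophil-high and its near-identical neighbour *Ly6c1* lung-high (63 against 5.57 and 0.0578 against 52.1 FPKM), although reads could be split between these copies. *Lyz2*, lysozyme of myeloid and alveolar type 2 cells, measured 5049, 6031 and 5738 FPKM in whole lung and 1213, 1171 and 1161 in sorted cells and was in neither class, and *Lyz1* was lung-high (679, 471 and 419 against 2.86, 1.38 and 2.16).

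**Figure D4:**
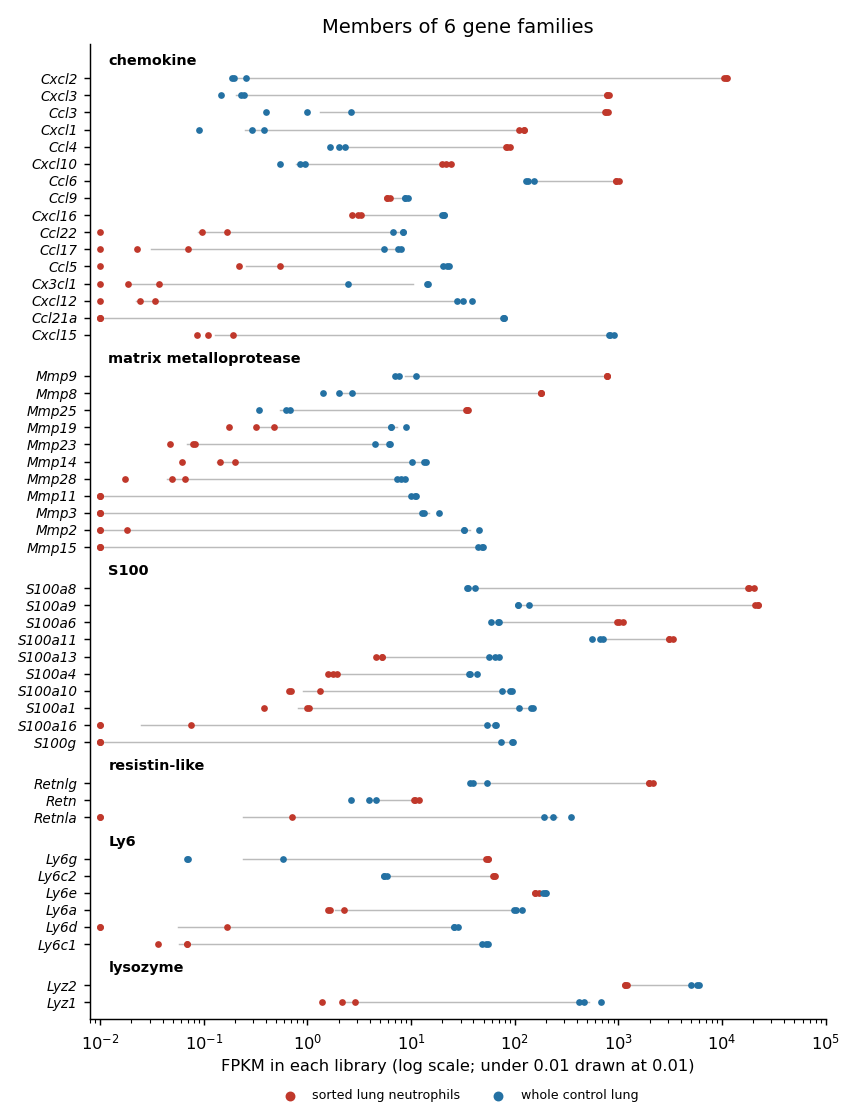
FPKM on a log scale of members of 6 gene families in each of 3 sorted lung neutrophil libraries (red) and 3 control lung libraries (blue), lines joining the group means and values under 0.01 drawn at 0.01. Each family holds members to the right in red, such as *Cxcl2*, *Mmp9* and *Retnlg*, and members to the right in blue, such as *Cxcl15*, *Mmp15* and *Retnla*, except the lysozymes. Of these *Lyz1* lies further right in blue and *Lyz2* was in neither class.

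A few transcripts were abundant in both. Among the 50 highest genes of sorted lung neutrophils and the 50 highest of whole lung, 8 were shared, and among the 500 highest, 133. The 8 were *Actb* (actin), *Tmsb4x*, whose product binds actin, the ferritin light chain gene *Ftl1*, *S100a11*, the MHC class I genes *H2-D1* and *B2m*, *Lyz2* and the haptoglobin gene *Hp*. *B2m* measured 1429, 1326 and 1329 FPKM in sorted cells and 1331, 1281 and 1414 in whole lung, but 6115 and 6453 in the WT lung libraries of the *Piezo1* experiment, so that such near-equal values depend on the table. *Hp* measured 1248, 1223 and 1190.1 FPKM against 649.6, 706 and 958. Of 20 ribosomal protein genes 0 were neutrophil-high and 1 was lung-high, and whole lung held a median of 309.8% of the sorted level. Of the 475 neutrophil-high genes, 347 were also so against control lung when the WT lung libraries of the *Piezo1* experiment, which gave 444 in all, stood in for the sorted lung libraries (347 of 475 and of 444), and of the 1435 lung-high genes 1358 were shared (of 1435 and of 1747).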

How the data were processed

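FPKM values were used as deposited. The authors trimmed 150 bp paired-end reads with fastp, aligned them with HISAT2 (mm10), counted genes with HTSeq and computed FPKM per gene and library, in versions not given in the sources used here. The labels name poly(A) selection and a SMARTER mRNA kit, and the paper's methods another kit. Genes are listed by symbol and NCBI identifier (21878) or Ensembl identifier (55335), and the 27 and 26 symbols turned into dates were left out. Positions and promoters are those of GRCm38. The authors' fold changes, p-values and group means of the *Piezo1* experiment and 4 columns of *Piezo1*-cKO libraries were not used.

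Whole reads were recovered from FPKM for 15200 of 15201 genes above 0 in the tissue table (within 0.02 of a read), and not for whole lung, whose depth is therefore unknown. Classes needed a mean of 10 FPKM and a 10-fold gap between the nearest libraries. Within a table, groups were compared with limma-trend (limma 3.58.1 in R 4.3.3; moderated variances were trended and robust) on log2(FPKM + 1), which understates changes of low genes, among genes at 1 FPKM in at least 3 libraries, with Benjamini-Hochberg adjustment. On simulated data it recovered 99% of 200 changed genes for depletion (13779 genes, 3.41% of calls false) and 100% for lung against PB (7346 genes, 0% false). In the simulation only genes above a minimum level were changed, noise was drawn for each gene independently, and no whole library was shifted. The recovery therefore does not give the sensitivity in the real libraries. There *S100a9* (log2 fold change -1.60, limma adjusted p = 0.232) and *Il1b* (-1.79, limma adjusted p = 0.076) were not called after depletion. Python 3.11.15 with pandas 2.3.3, numpy 2.4.6 and matplotlib 3.10.9 served for the rest.

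Named genes are the 10 highest of each class, the 5 lowest and 5 highest percents, genes among the 50 highest of both tissues, and members of 39 lists, those with the highest level first; some members are not reported here. Members and lists were chosen with earlier results of these data known. Alternatives were other scalings, filters, ratios, a replicate block, the other WT lung libraries and each library left out.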

Additional observations from a re-analysis of the deposited data

How the results depend on the processing

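The neutrophil-high class held 278 genes at a ratio of 20 and 392 to 537 under the other scalings, minimums and libraries, and 477 to 491 with 1 library left out. The lung-high class held 4588 genes at a minimum of 1 FPKM and 3538 with libraries rescaled to one sum, where an FPKM of 10 stands for a lower level, 1190 to 1747 otherwise, and 1447 to 1466 with 1 library left out. The percent of the sorted level over the scale was 0.858% with libraries rescaled to one sum, 0.494% against the WT lung libraries of the *Piezo1* experiment, 0.245% in depleted lung, 0.0446% and 6.10% for the smallest and largest gene, 0.609% over the full neutrophil list, 0.514% as sum over sum, and 0.627% to 0.643% with 1 library left out. Genes supplied at 50% or more numbered 20 in depleted lung, 165 at 20% or more, 1 and 525 at the smallest and largest scale (chosen after seeing the data), and 59 to 63 with 1 library left out. The level of lung-tissue genes in sorted cells was 0.0283% of whole lung in the *Piezo1* experiment and 0.0762% to 0.0859% with 1 library left out (chosen after seeing the data). Calls after depletion numbered 4 at a pseudocount of 0.1, 0 with no filter and 0 to 12 with 1 library left out. Same-numbered libraries did not deviate together (correlations 0.06, 0.04 and -0.03 for depletion and -0.06, 0.03 and -0.09 for lung against PB), so the numbers were not taken to pair them; the replicate block gave 5 calls after depletion (3 higher, 2 lower, *Mmp9* at a limma adjusted p of 0.0267) and 2061 for lung against PB, as without it. Lung against PB gave 6467 calls at the adjusted p alone and 1875 to 1951 with 1 library left out, and rescaling by the median ratio turned *S100a8* to 0.011 and *S100a9* to 0.28 on the log2 scale. The causes of these changes were not tested. Depth limits the values near 0: a gene without reads in sorted cells may have up to 3, and no such limit is known for whole lung.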
